A study of Mus musculus with 6 samples.

Results

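Chemokines and chemokine receptors were followed in endothelial cells (EC) of the mouse lung, between the infant and the young adult animal. The genes were Cxcl12, Cxcl9, Cxcl10, Cxcl16, Cx3cl1 and Ccl2 among the ligands, and Cxcr4 and Cxcr7 among the receptors, taken by symbol from the deposited expression table. Of these 8 genes, 7 were among the 12623 genes of the table, in 9 of its 17241 transcript rows. Cxcr7 was listed there as Ackr3, its present name, and Cxcl9 was not analysed here.

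The RNA came from 3 infant and 3 young adult libraries of C57BL/6N mice with no treatment or engineered allele named, females by the methods of the study. EC were sorted by FACS as cells with CD31 and CD34 on the surface and without PTPRC, LYVE1, PDPN and LY76, so every vessel type of the lung that passed this gate entered the same library, apart from lymphatic vessels, which LYVE1 and PDPN mark. How many animals gave each library is not given in the sources used here, so the p-values below measure the spread between libraries, which may be partly technical. Values are RPKM, reads scaled to the length of the transcript and to the mapped reads of the library, given to 1 decimal, and the read depth behind them is unknown.

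Chemokines are small secreted or membrane-bound proteins that guide cells along a gradient by way of receptors coupled to G proteins. CXCL12 acts through CXCR4, which signals for migration and takes part in vessel growth, and is also bound by ACKR3 (CXCR7), an atypical receptor that recruits arrestin, takes CXCL12 into the cell and thereby removes it from the surroundings. CXCL9 and CXCL10 are interferon-induced ligands of CXCR3 on T cells, CCL2 draws monocytes through CCR2, and CX3CL1 and CXCL16 are made as membrane-anchored proteins that hold leukocytes on the endothelium or are shed as soluble chemokines by ADAM proteases.

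Endothelial identity was checked first. All 14 endothelial markers were present, with Cdh5 between 213.8 and 316.9 RPKM. Pecam1 had 309.8 to 512.6 RPKM in infant EC and 573.7 to 657.8 RPKM in young adult EC. The summed level of the 14 markers was 3516 to 5066 and 5266 to 5778 RPKM, without overlap. Of these markers 11 had positive and 3 negative log2 fold changes, and 1 was called higher in young adult EC. By the rule for a call given below, 3.33% of all genes tested were called higher and 8.1% lower. RNA of other cells was present too. All 12 fibroblast markers had negative log2 fold changes, and 11 were called lower in young adult EC. Their summed level was 348 to 1322 RPKM in infant EC and 11.7 to 27.2 RPKM in young adult libraries. All 10 mural markers had negative changes too, and 9 were called lower (sums of 70.1 to 241 against 12.1 to 16.4 RPKM). All 15 leukocyte markers had negative log2 fold changes and 6 were called lower. Their sums overlapped (345 to 545 against 146 to 575 RPKM) through the macrophage and epithelial gene Lyz2, and without it, a choice made after the values were seen, the other 14 summed to 69.2, 77.7 and 171.9 against 11.6, 35.6 and 59.5 RPKM, without overlap. Of 10 epithelial markers 3 were called lower and 1 higher, and their sums overlapped (6418 to 11301 against 1823 to 8362 RPKM). The 7 erythroid markers were all called lower (9656 to 79864 against 822 to 1351 RPKM). In every infant library the epithelial and the erythroid sum exceeded the endothelial sum. In young adult replicate 3 the epithelial sum did so too (8362 against 5778 RPKM). Such sums do not give shares of cells. In the infant libraries no marker of these lists stood at 0, whereas in at least 1 young adult library S100a8, S100a9, Loxl1, Cspg4, Epcam and Slc4a1 were among those that did. The Y-linked gene Ddx3y had 20.6, 16.5 and 21.9 RPKM in the infant libraries and 0.0 in each young adult library, and Xist, expressed from the inactive X chromosome of females, 7.6 to 8.7 against 12.5 to 15.6 RPKM. Infant libraries thus held Y-linked RNA, although the methods name females, and sex and age cannot be told apart in any comparison below.

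The promoters of the receptor genes that changed, and that of Cxcl10, a ligand known for induction by interferon, are shown for the elements they carry. Each sequence holds the 250 bases before the RefSeq start of the gene (assembly GRCm38.p6), read 5′ to 3′ on the strand of the gene. Capitals mark matches, on either strand, to the consensus of the interferon-stimulated response element (ISRE), the consensus of the NF-kB site, the interferon gamma-activated site (GAS, spelled TTCNNNGAA), the hypoxia response element, the TATA box or the GC box.
Cxcr4, chr1:128592300-128592549, minus strand: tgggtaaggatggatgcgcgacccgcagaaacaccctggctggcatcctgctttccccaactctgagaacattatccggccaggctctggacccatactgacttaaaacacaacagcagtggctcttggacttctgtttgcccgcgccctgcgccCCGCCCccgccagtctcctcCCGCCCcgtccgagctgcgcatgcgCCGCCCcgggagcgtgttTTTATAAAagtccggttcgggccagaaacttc
Ackr3, chr1:90203730-90203979, plus strand: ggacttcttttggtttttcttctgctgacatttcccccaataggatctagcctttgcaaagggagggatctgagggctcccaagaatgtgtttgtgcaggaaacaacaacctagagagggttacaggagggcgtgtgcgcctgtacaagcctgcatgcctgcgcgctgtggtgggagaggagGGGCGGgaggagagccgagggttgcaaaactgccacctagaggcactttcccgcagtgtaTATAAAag
Cxcl10, chr5:92348890-92349139, minus strand: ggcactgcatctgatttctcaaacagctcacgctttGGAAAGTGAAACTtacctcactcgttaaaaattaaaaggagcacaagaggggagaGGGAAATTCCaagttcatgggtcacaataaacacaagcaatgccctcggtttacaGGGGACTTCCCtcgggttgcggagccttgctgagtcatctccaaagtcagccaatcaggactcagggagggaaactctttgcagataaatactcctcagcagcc
In the Cxcr4 window the TATA box, searched as TATAAA, lay 30 to 25 bases before the start, overlapped by a match on the other strand (32 to 27), and GC boxes began 95, 75 and 50 bases before the start. The Ackr3 window had 1 GC box, searched as GGGCGG, at 68 to 63 bases before the start and a TATA match close to the start (8 to 3). In the Cxcl10 window the ISRE match lay 214 to 202 bases before the start, and NF-kB matches lay 159 to 150 bases before it and, overlapping each other and on both strands, 104 to 94 bases before it. Among 32851 promoter windows of the same length, 0.0426% held the ISRE consensus, 7.25% the NF-kB consensus, 7.02% the GAS, 16.6% the hypoxia element (ACGTG), 12.4% the TATA and 32.7% the GC box letters. The ISRE and NF-kB consensus forms replaced looser forms searched first, which 2.98% and 17.6% of the windows held, so how rare the Cxcl10 matches are depends on the form. By either form neither receptor window held an ISRE or NF-kB match, nor did those of Cxcl12 and Cx3cl1, and none of these held the GAS or hypoxia letters. Cxcl9 had an NF-kB match (130 to 121) by the looser form only. Such matches describe the sequence and are not evidence that a factor bound there.

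The receptor genes went opposite ways. Cxcr4 fell in young adult EC, to 0.211 of its infant mean, while Ackr3 rose to 2.56 times its infant mean. Of the ligands, Ccl2 was lower in young adult EC, and Cxcl12, Cxcl10, Cxcl16 and Cx3cl1 did not pass the test. A gene was called where limma on log2(RPKM + 1) gave an adjusted p (Benjamini-Hochberg over 12458 genes) under 0.05 and an absolute log2 fold change above 0.81, the fold threshold of the study on that scale. By this rule 3 of the 7 members were called, 1 higher and 2 lower, beside 11.4% of all genes tested (3.33% higher and 8.1% lower). The groups did not overlap for the same 3 members, beside 43.4% of all genes. The median log2 fold change was 0.06 over the members and -0.07 over all genes.

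**Figure D1:**
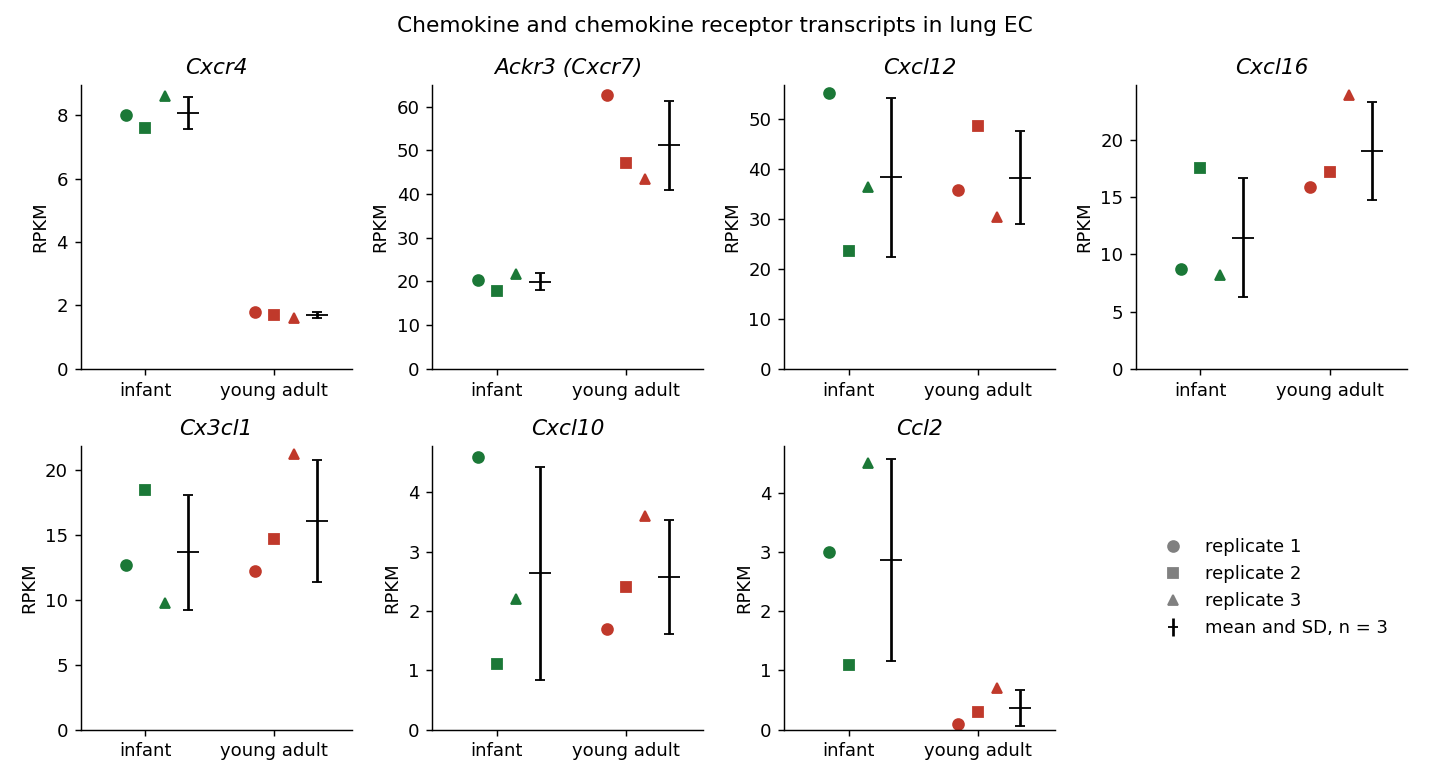
RPKM of the 7 members in each library (vertical axes from 0, scaled per gene), with infant in green, young adult in red, symbols for the replicate number and the mean with SD (n = 3) in black. The groups are apart for Cxcr4, Ackr3 and Ccl2 and overlap for the other members.

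Cxcr4, the signalling receptor of CXCL12, stood at 8.0, 7.6 and 8.6 RPKM in infant EC and at 1.8, 1.7 and 1.6 RPKM in young adult EC. Every young adult library was below every infant library, and the libraries of a group lay close together. The means were 8.07 ± 0.503 and 1.7 ± 0.1 RPKM (SD, n = 3), a young adult to infant ratio of 0.211. The log2 fold change was -1.75 (SE 0.098, 95% interval -1.97 to -1.52, limma adjusted p = 0.000237). Leukocytes also carry CXCR4, and the pan-leukocyte gene Ptprc had 4.2, 3.0 and 7.0 RPKM in infant EC and 0.2, 1.0 and 1.8 RPKM in young adult libraries. Cells with its product were gated out, and its part in the Cxcr4 difference was not tested. In these bulk samples fewer cells with a transcript and less of it per cell cannot be told apart.

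Ackr3, which encodes the atypical receptor that clears CXCL12, moved the other way. It had 20.4, 17.8 and 21.7 RPKM in infant EC and 62.7, 47.1 and 43.5 RPKM in young adult EC. The lowest young adult library was above the highest infant one, and young adult replicate 1 was the highest of all. The means were 20.0 ± 1.99 and 51.1 ± 10.2 RPKM (SD, n = 3), a ratio of 2.56. The log2 fold change was 1.30 (SE 0.15, 95% interval 0.95 to 1.65, limma adjusted p = 0.00209). Marker lists of some EC types moved beside it. The 5 venous markers summed to 65.0 to 76.7 RPKM in infant EC and 177 to 264 RPKM in young adult EC. Of them 3 were called higher and 1 lower, beside 3.33% and 8.1% of all genes. The 5 general capillary markers summed to 689 to 1304 and 1572 to 1933 RPKM, with 3 called higher. Sums overlapped for the 5 aerocyte markers (1262 to 2216 and 1482 to 2143 RPKM, 0 called) and the 6 arterial markers (165.1 to 206.3 and 163.5 to 243.7 RPKM, 1 called lower). The part of these lists, and of the endothelial markers, whose sum was higher in young adult EC, in the Ackr3 difference was not tested.

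The balance of the CXCL12 receptors thereby shifted within each library. Ackr3 exceeded Cxcr4 by 2.55, 2.34 and 2.52 times in infant and by 34.8, 27.7 and 27.2 times in young adult EC. The log2 ratio of Cxcr4 to Ackr3, with 1 RPKM added to each, was -1.25, -1.13 and -1.24 in infant and -4.51, -4.16 and -4.10 in young adult libraries. The difference was -3.05, and the groups did not overlap (two-sided exact permutation test, p = 0.1). That p is the smallest that 3 against 3 libraries allow, so 0.05 is out of reach. The ratio combines the Cxcr4 and Ackr3 changes given above, both without overlap. Its difference and lack of overlap follow from them and are no separate support.

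Ccl2, the monocyte attractant, was a low transcript in both groups and reached 1 RPKM, the level needed for testing, only in infant libraries. It had 3.0, 1.1 and 4.5 RPKM in infant EC and 0.1, 0.3 and 0.7 RPKM in young adult EC. The groups did not overlap, but infant replicate 2 came close to young adult replicate 3. The means were 2.87 ± 1.70 and 0.367 ± 0.306 RPKM (SD, n = 3), a ratio of 0.128. The log2 fold change was -1.42 (SE 0.34, 95% interval -2.21 to -0.62, limma adjusted p = 0.023). The call was lost without infant replicate 1 (adjusted p = 0.0812), infant replicate 3 (0.0641), young adult replicate 1 (0.086) or young adult replicate 2 (0.0851), all by limma, and with a pseudocount of 5 RPKM, where the change was -0.53.

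Cxcl12, the ligand of both receptors, was the most abundant chemokine of the members in both groups. Its highest row had 55.1, 23.5 and 36.4 RPKM in infant EC and 35.7, 48.5 and 30.4 RPKM in young adult EC. The young adult values lay inside the infant range, with means of 38.3 ± 15.9 and 38.2 ± 9.31 RPKM (SD, n = 3). The log2 fold change was 0.05 (95% interval -0.64 to 0.74, limma adjusted p = 0.917), and its sign turned under some settings (-0.02 after quantile normalization, -0.25 without infant replicate 2). In each group the library with the most Cxcl12 was also the one with the highest fibroblast sum (infant replicate 1 with 1322 RPKM, young adult replicate 2 with 27.2 RPKM) and the highest arterial sum over 6 markers (206 and 244 RPKM). Their part in the Cxcl12 values was not tested.

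CXCL12 is made in several splice forms that share their first exons and differ at the carboxyl end, and the table held 3 of them. On GRCm38 (chr6:117168535-117181368) the alpha form has 3 exons and 89 codons, the beta form 4 exons and 93 codons, and the gamma form 4 exons and 119 codons. Of the exon bases of alpha, 81.5% were in no other row, of gamma 44.4% and of beta 0%, so reads of beta and gamma cannot be told apart from each other along much of their length.

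The alpha row had 31.4, 14.2 and 17.7 RPKM in infant EC and 13.9, 20.7 and 12.8 RPKM in young adult EC. The beta row had 48.0, 22.4 and 34.2 RPKM in infant EC and 34.3, 45.8 and 29.3 RPKM in young adult EC. The levels of each row overlapped between the groups, but the ratio of alpha to gamma did not. It was 0.570, 0.604 and 0.486 in infant and 0.389, 0.427 and 0.421 in young adult libraries. On the log2 scale this was a difference of -0.42 for alpha over gamma and -0.47 for alpha over beta (two-sided exact permutation tests, p = 0.1 each), against 0.05 for beta over gamma (p = 0.2). The ratios were chosen after the values were seen. Leaving out any library kept the difference of alpha to gamma between -0.51 and -0.35. In a limma fit over 17035 transcript rows none of the 3 rows was called, with log2 fold changes of -0.35 for alpha (95% interval -1.01 to 0.32), 0.10 for beta and 0.05 for gamma, beside 1959 rows called in all.

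**Figure D2:**
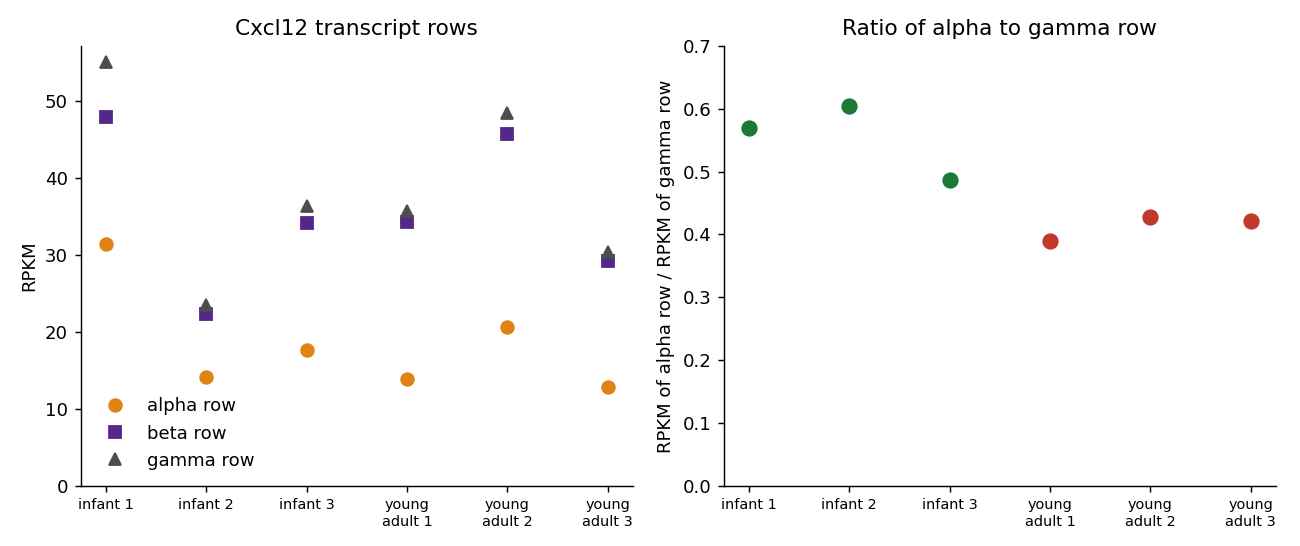
RPKM of the alpha, beta and gamma transcript rows of Cxcl12 in each library (left) and the ratio of the alpha to the gamma row (right, infant in green and young adult in red). Ratios are 0.486 to 0.604 in infant and 0.389 to 0.427 in young adult libraries.

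The membrane-anchored ligands showed no called change. Cxcl16, the ligand of CXCR6, had 8.7, 17.5 and 8.2 RPKM in infant EC and 15.9, 17.2 and 23.9 RPKM in young adult EC. Infant replicate 2 stood at the young adult level, apart from the other infant libraries. The means were 11.5 ± 5.23 and 19.0 ± 4.29 RPKM (SD, n = 3), with a log2 fold change of 0.74 (95% interval 0.10 to 1.38, limma adjusted p = 0.0865). Without infant replicate 2 it was 1.06 and called (limma adjusted p = 0.00233).

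Cx3cl1, the ligand of CX3CR1, had 12.7, 18.5 and 9.8 RPKM in infant EC and 12.2, 14.7 and 21.3 RPKM in young adult EC. The groups overlapped, with means of 13.7 ± 4.43 and 16.1 ± 4.70 RPKM (SD, n = 3) and a log2 fold change of 0.23 (95% interval -0.36 to 0.81, limma adjusted p = 0.54). Infant replicate 2 and young adult replicate 3 were the highest library of their group for both Cxcl16 and Cx3cl1. The same libraries had the highest sums of the 5 aerocyte markers (2216 and 2143 RPKM), of the epithelial markers (11301 and 8362 RPKM), of the endothelial markers (5066 and 5778 RPKM) and of the leukocyte markers (545 and 575 RPKM). Without Lyz2 the highest leukocyte sum among infant libraries was that of replicate 3. The sum of the 11 interferon signalling genes compared below was also highest in infant replicate 2 and young adult replicate 3 (475.7 and 673.5 RPKM). The part of these markers and genes in the Cxcl16 and Cx3cl1 values was not tested.

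Cxcl10 was low and scattered. It had 4.6, 1.1 and 2.2 RPKM in infant EC and 1.7, 2.4 and 3.6 RPKM in young adult EC. Both the lowest and the highest value belonged to infant libraries, and the means were 2.63 ± 1.79 and 2.57 ± 0.961 RPKM (SD, n = 3). The log2 fold change was 0.06 (95% interval -0.76 to 0.87, limma adjusted p = 0.922), and its sign turned when infant replicate 2 (-0.28) or young adult replicate 3 (-0.15) was left out and when globin genes were left out of the scaling (-0.03).

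Ordered by mean RPKM, infant EC had Cxcl12 (above 89.2% of genes), Ackr3 (79.2%), Cx3cl1 (70.9%), Cxcl16 (66.4%), Cxcr4 (56.6%), Ccl2 (28.4%) and Cxcl10 (26.4%). In young adult EC the order was Ackr3 (91.8%), Cxcl12 (88.7%), Cxcl16 (78.3%), Cx3cl1 (75%), Cxcl10 (30.9%), Cxcr4 (23.3%) and Ccl2 (5.24%). Among neighbours in the infant order, the ranges over the libraries were apart for Cxcl12 over Ackr3 and for Cxcr4 over Ccl2. In the young adult order they were apart for Cxcl12 over Cxcl16, Cx3cl1 over Cxcl10 and Cxcr4 over Ccl2. By the means Cxcr4 went from place 5 to place 6 and Ackr3 from place 2 to place 1. In young adult EC, however, the ranges of Ackr3 and Cxcl12 overlapped, as did those of Cxcl10 and Cxcr4.

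The genes most like each member were sought among 6980 genes with a mean of 5 RPKM or more, by Pearson correlation over the 6 libraries, which share the age groups. For Ackr3 they were Samd12 (r = 0.9939), Specc1 (0.9936) and Itga6 (0.9909), the last encoding a laminin-binding integrin. For Cxcr4 they were Ddx3y (0.9991), Ifi30 (0.9979) and Mzt1 (0.9969), and 237 genes exceeded 0.95. Ccl2 was closest to Copb2 (0.9984), Wbp5 (0.9966) and Gm12657 (0.9950). Cxcl12, which did not follow the groups, was closest to Ttc37 (0.9822), Ikbkap (0.9816) and Nvl (0.9638), and only 8 genes exceeded 0.95. Cxcl16 was closest to AI836003 (0.9987), Cxx1a (0.9955) and Grina (0.9949), Cx3cl1 to Endod1 (0.9956), Gm2274 (0.9943) and Letm1 (0.9915), and Cxcl10 to Supt6 (0.9694), Wdr36 (0.9586) and Lrrc41 (0.9543).

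The other receptors set Ackr3 beside its relatives. Of 22 further receptor genes, 7 were in the table and 6 were tested. Of these 2 were called higher and 1 lower, beside 3.33% and 8.1% of all genes, with a median change of -0.04 (log2). Both that were higher bind chemokines or chemerin without signalling through G proteins, as ACKR3 does. Ccrl2, which presents chemerin, had 19.6, 28.6 and 21.1 RPKM in infant EC and 56.8, 51.6 and 42.5 RPKM in young adult EC (a change of 1.10 on the log2 scale, SE 0.17, limma adjusted p = 0.00497). Ackr4, a scavenger of CCL19 and CCL21, had 3.2, 3.4 and 3.0 RPKM in infant EC and 6.8, 9.9 and 7.5 RPKM in young adult EC (1.10, SE 0.14, limma adjusted p = 0.00274). For both genes every young adult library exceeded every infant one, and the Ackr4 call was lost with a pseudocount of 5 RPKM (0.67). Ackr2, a scavenger of inflammatory CC chemokines and the most abundant of these receptors, had 67.6, 90.4 and 59.6 against 80.2, 106.7 and 101.6 RPKM and was not called (0.41, 95% interval -0.0045 to 0.83, limma adjusted p = 0.127).

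Ccr7, the receptor of CCL19 and CCL21, was lower, with 1.5, 1.0 and 3.1 against 0.2, 0.4 and 0.7 RPKM (log2 fold change -0.95, limma adjusted p = 0.0395). Leaving out any library but infant replicate 2 ended the call (limma adjusted p up to 0.126). So did a pseudocount of 5 RPKM (-0.33, limma adjusted p = 0.0609) and quantile normalization (-0.58, limma adjusted p = 0.132). Ccr7, like Ccr2, reached the 1 RPKM needed for testing only in infant libraries. Ccr2, the receptor of CCL2, had 0.4, 0.4 and 1.3 RPKM in infant EC and 0.0, 0.0 and 0.3 RPKM in young adult EC and was not called (-0.60, 95% interval -1.15 to -0.04, limma adjusted p = 0.104). Cxcr3, Cxcr6 and Cx3cr1, the receptors of CXCL10, CXCL16 and CX3CL1, were not analysed here. Summed over Ackr3, Ackr2, Ackr4, Ccrl2 and Ackr1 (listed as Darc), atypical receptors had 110.9, 140.3 and 105.5 RPKM in infant EC and 206.9, 216.0 and 195.6 RPKM in young adult EC. The sum of the conventional receptors Cxcr4, Ccr1, Ccr2 and Ccr7 was 10.6, 9.5 and 14.1 against 2.0, 2.3 and 3.2 RPKM. The atypical share of all these receptors was 88.2% to 93.7% in infant and 98.4% to 99.0% in young adult libraries. In every library the largest part of the atypical sum was Ackr2, which was not called. The leukocyte sum without Lyz2 was lower in young adult libraries too, and the part of leukocyte RNA in Ccr7, Ccr2 and the conventional sum was not tested.

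Among the other ligands, 35 were named, 19 were listed and 18 were tested. Of these 7 were called lower in young adult EC and 0 higher, beside 8.1% and 3.33% of all genes. Changes were negative for 15 and positive for 3, with a median log2 fold change of -0.64. Part of the 18, the called Ccl7 and Ccl19 included, reached the 1 RPKM needed for testing only in infant libraries. Such genes entered through the infant group, so the count and the median lean towards lower values. Cxcl1 and Cxcl2, which attract neutrophils, had 14.4, 5.5 and 13.3 against 3.1, 1.5 and 0.4 RPKM (-2.21, limma adjusted p = 0.0126) and 5.1, 7.0 and 10.0 against 0.7, 0.6 and 2.0 RPKM (-2.01, limma adjusted p = 0.00429). Ccl3 and Ccl4, products of activated leukocytes, changed by -1.58 and -1.89, and Ccl7, another CCR2 ligand, by -1.11 (limma adjusted p = 0.0115, 0.0415 and 0.00874). Ccl19, a CCR7 ligand, changed by -1.39 and the mucosal chemokine Cxcl17 by -0.90 (limma adjusted p = 0.00416 and 0.0346). With a pseudocount of 5 RPKM the calls of Cxcl1 and Cxcl2 held and the other 5 were lost, and quantile normalization ended those of Ccl4, Ccl7 and Cxcl17. The Cxcl17 call was lost when any of the 6 libraries was left out (adjusted p up to 0.114), that of Ccl4 without infant replicate 1 or 3 or young adult replicate 1 or 2 (up to 0.141), and that of Cxcl1 without infant replicate 1 (0.0506) or young adult replicate 2 (0.0551).

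Ccl6, Cxcl15 and Pf4 were named for a mean of 5 RPKM or more in a group, and none was called. Ccl6, a macrophage chemokine, had 20.6, 22.3 and 28.3 against 1.0, 10.0 and 20.8 RPKM (-1.65, 95% interval -3.38 to 0.09). Cxcl15, a product of lung epithelium, had 19.3, 23.9 and 21.5 against 8.0, 15.1 and 25.1 RPKM, and the platelet chemokine Pf4 1.5, 7.5 and 4.4 against 3.6, 7.0 and 4.5 RPKM. For Ccl6 and Cxcl15 the young adult libraries had the same order as the leukocyte sums (146, 321 and 575 RPKM) and the epithelial sums (1823, 4799 and 8362 RPKM), whose part was not tested. Cxcl12 made up 32.4%, 15.2% and 21.2% of the summed RPKM of 24 ligands in infant and 39.7%, 37.1% and 19.6% in young adult EC, shares that overlapped.

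**Figure D3:**
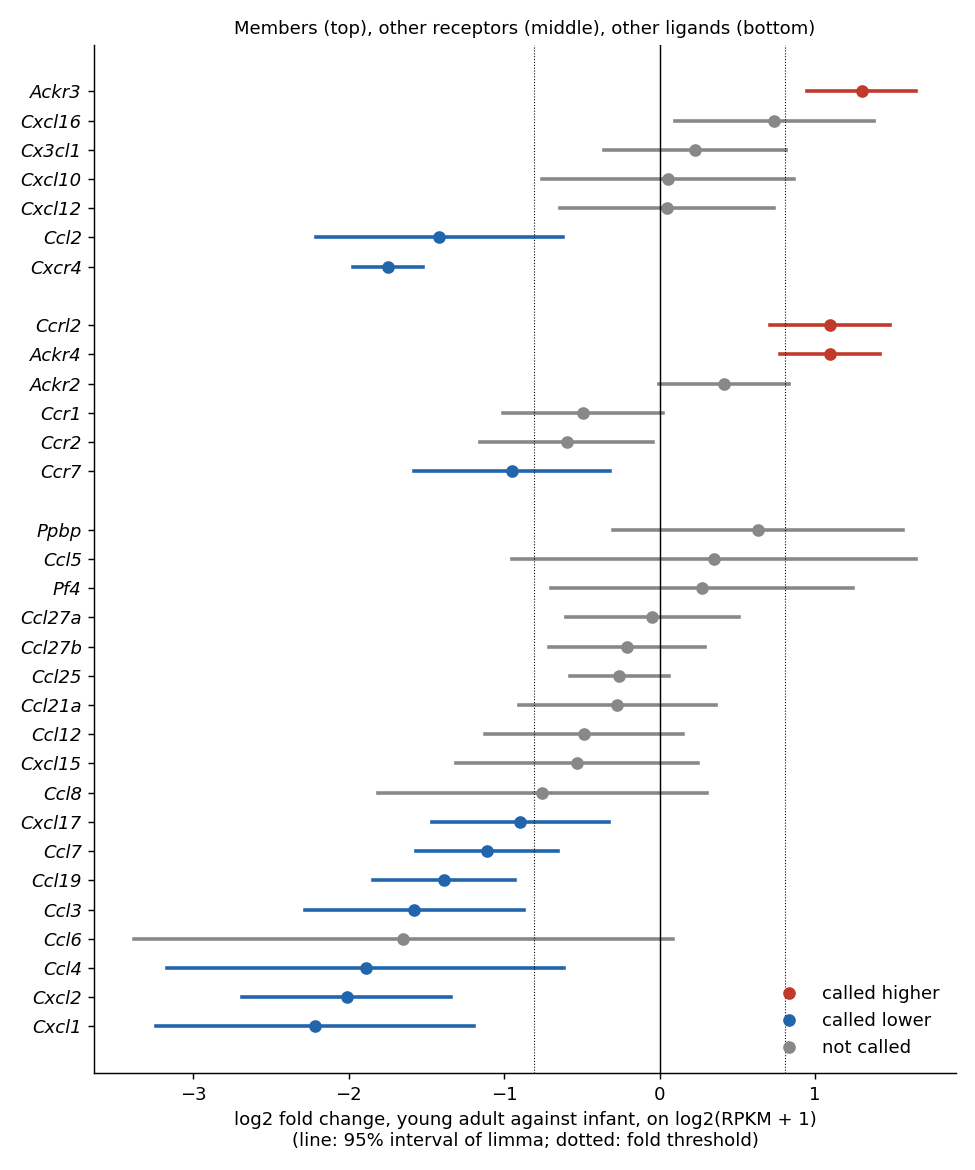
Log2 fold change of young adult against infant EC on the log2(RPKM + 1) scale (horizontal axis) with its 95% interval, for the 7 members, 6 other receptors and 18 other ligands, coloured by call. Ackr3, Ccrl2 and Ackr4 are called higher, and Cxcr4, Ccl2, Ccr7 and 7 other ligands lower.

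The genes around the receptors and ligands were then compared. Of 14 genes of receptor signalling and ligand processing, 0 were called higher and 2 lower, beside 11.4% of all genes called, the median change being -0.19 (log2). Mmp2, a matrix protease that can cleave CXCL12, had 38.7, 7.7 and 29.4 against 3.0, 3.4 and 2.0 RPKM (-2.55, limma adjusted p = 0.0126). Fibroblasts make Mmp2 as well, and the part of their markers, summed above, was not tested. Without young adult replicate 1 the Mmp2 call was lost (limma adjusted p = 0.0508). Gnai1, an inhibitory G protein subunit, changed by -0.91 (limma adjusted p = 0.00644), a call lost with a pseudocount of 5 RPKM (-0.38) and after quantile normalization (-0.64). Arrb1, which encodes a beta-arrestin, had 18.6, 19.4 and 17.2 against 27.9, 28.5 and 25.0 RPKM, without overlap but under the fold required (0.54, limma adjusted p = 0.00927). The shedding proteases Adam10 and Adam17 were not called (-0.24 and -0.18).

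Of 11 genes of interferon signalling, 4 were called higher in young adult EC and 0 lower, beside 3.33% and 8.1% of all genes, with a median of 0.31. Among the 4 were the transcription factor genes Stat2 (1.25), Irf9 (1.15) and Irf1 (1.03), with limma adjusted p-values of 0.00683, 0.0107 and 0.00864. Without young adult replicate 1 the Irf9 call was lost (0.0506). Stat2 had 16.0, 23.3 and 12.9 RPKM in infant EC and 43.5, 35.3 and 46.9 RPKM in young adult EC. STAT2 and IRF9 belong to the complex that binds the ISRE, whose consensus stands in the Cxcl10 promoter shown above, and Cxcl10 itself was not called. Of 12 genes of NF-kB signalling none was called by limma, beside 11.4% of all genes. An unadjusted limma p under 0.05 was reached by 5 of them, beside 5032 of the 12458 genes tested, and their median was 0.13. The largest change was that of the inhibitor gene Nfkbia, with 110.6, 203.8 and 86.2 against 189.8, 373.7 and 260.9 RPKM (1.08, limma adjusted p = 0.057).

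Handling of tissue can induce immediate early genes and some chemokines, so 13 genes of this response were compared. Of these 8 were called lower in young adult EC and 0 higher (median -0.98), beside 8.1% and 3.33% of all genes. Among the 8 were Nr4a1 (-2.18), Fos (-1.97), Egr1 (-1.80) and Fosb (-1.74), all with limma adjusted p-values of 0.0104 or less. Without young adult replicate 2 the Nr4a1 call was lost (0.0532). Their summed level was 1589, 1085 and 1336 RPKM in infant EC and 783, 570 and 698 RPKM in young adult EC. The 19 other ligands summed to 85.9, 92.4 and 111.0 against 24.4, 47.7 and 75.0 RPKM. Both sums were lower in every young adult library. Replicate 1 of each group was highest for the dissociation genes and replicate 3 of each group for the ligand sum, which includes the uncalled Ccl6 and Cxcl15. The called ligands differed in this. Cxcl1 was highest in replicate 1 of each group (14.4 and 3.1 RPKM) and Cxcl2 in replicate 3 of each group (10.0 and 2.0 RPKM). Within each group the ligand sums had the same order as the leukocyte sums without Lyz2. The part of the dissociation response and of leukocyte RNA in the lower ligands, Ccl2 included, was not tested.

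**Figure D4:**
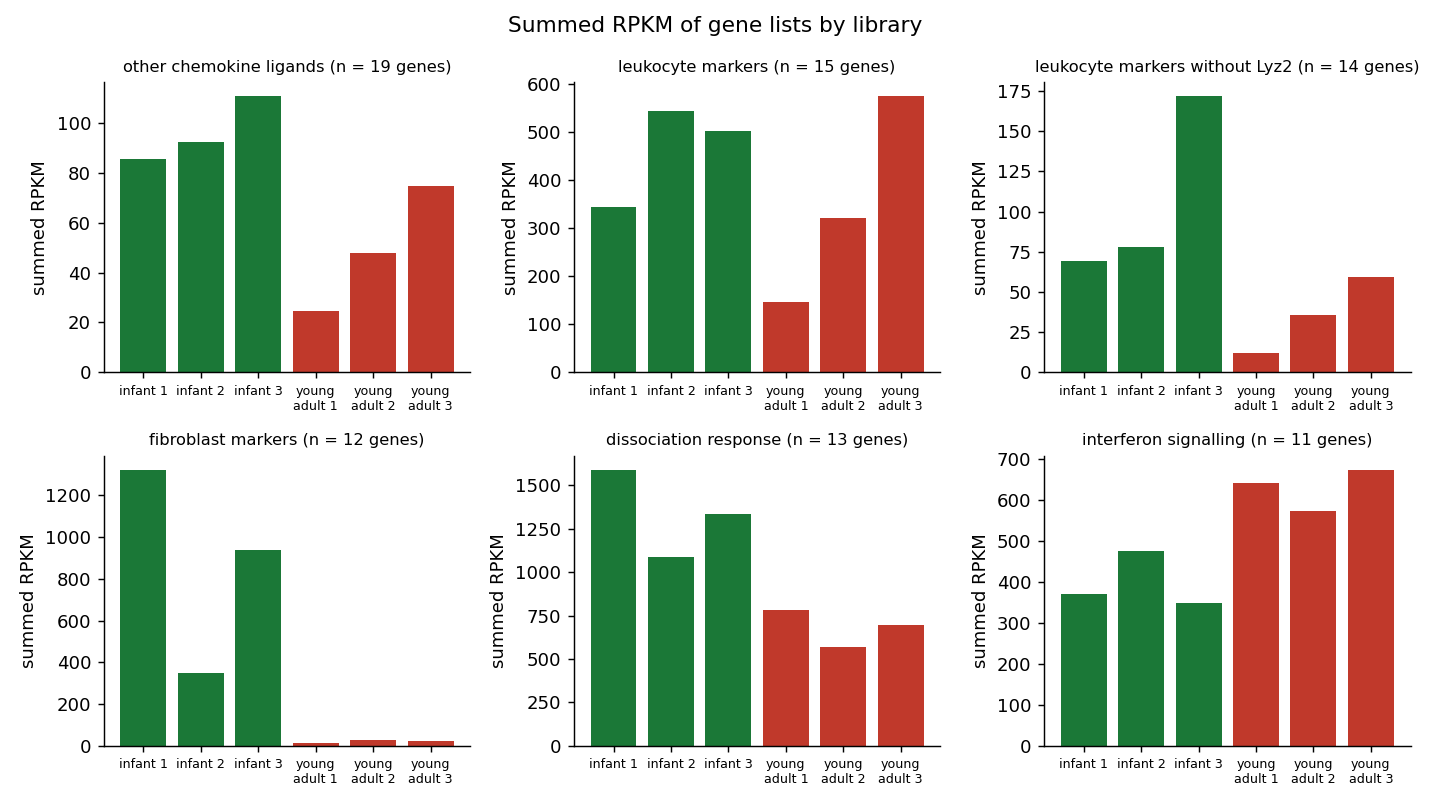
Summed RPKM per library (bars from 0, infant in green and young adult in red) of the 19 other chemokine ligands, of leukocyte markers with and without Lyz2, of fibroblast markers, and of dissociation and interferon genes. Infant libraries are above the young adult libraries for the ligands, the leukocyte markers without Lyz2, the fibroblast markers and the dissociation genes, the leukocyte sums with Lyz2 overlap, and the interferon sums are higher in the young adult libraries.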

How the data were processed

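The deposited table, made by the authors, gives RPKM per RefSeq transcript row, rounded to 1 decimal. RNA was taken from sorted EC with a PicoPure kit and turned into libraries by the SMARTer Ultra Low chemistry, a poly(A)-primed amplification that does not mark strand. Reads were aligned to mm10 with STAR per the labels, with no version given in the sources used here. The authors tested counts with DESeq2, which RPKM values do not allow, so limma 3.58.1 (R 4.3.3, empirical Bayes with intensity trend, Benjamini-Hochberg) was used instead on log2(RPKM + 1), with 3 infant against 3 young adult libraries.

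Each gene was represented by its row with the highest mean RPKM. Genes at 1 RPKM or more in at least 1 library were kept (12458 tested, 165 left out), and a call needed an adjusted p under 0.05 and an absolute log2 fold change above 0.81, the fold threshold of the study's methods. RPKM sums of the libraries ranged from 362969.7 to 428155.2. Fold changes on the log2(RPKM + 1) scale understate the change of low genes such as Ccl2. The read depth is unknown, so no counting interval was given, and the rounding step of 0.1 RPKM bounds the precision of low genes. The ratios of Cxcr4 to Ackr3 and of the Cxcl12 rows were compared by exact two-sided permutation tests (SciPy 1.17.1).

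The members, gene lists and promoter motifs were chosen with earlier results of these data known. Named were all members, other chemokine genes that were called or had a mean of 5 RPKM or more in a group, the receptors of the members, the called genes of the signalling and dissociation lists (at most 4 per list by size of change), the 3 genes most correlated with each member, and defining cell markers, apart from items that are not reported here. Arrb1, Adam10, Adam17 and Nfkbia were named outside this rule, after their values were seen. The ISRE and NF-kB patterns were redefined after looser ones had been searched, and the shares of both forms are given. Promoter sequences are those of RefSeq on GRCm38.p6, and exons are those of the RefSeq transcripts on GRCm38. The 11 alternatives covered pseudocount, filter, scaling, row choice and model settings, and each of the 6 libraries was also left out in turn. Every transcript row of Cxcl12 was an alternative added after the data were seen.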

Additional observations from a re-analysis of the deposited data

How the results depend on the processing

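The calls of Cxcr4 (log2 fold change -2.18 to -0.96) and Ackr3 (1.15 to 1.40) held under all 11 alternatives and with each of the 6 libraries left out. The number of genes called fell from 1424 to 578 with a pseudocount of 5 RPKM and was 842 to 1874 with 1 library left out. With that pseudocount 2 of the other ligands, 1 other receptor and 1 signalling or processing gene were called, and after quantile normalization 4 ligands and 1 signalling or processing gene. Leaving out a library gave 4 to 7 called ligands, 1 to 2 signalling or processing genes, 0 to 1 NF-kB genes and 5 to 9 dissociation genes. Upper quartile scaling called 1 NF-kB gene. The cause of these shifts was not tested. Signs turned for Cxcl12 (-0.02 with quantile normalization, -0.05 without globin genes, -0.01 as the mean over rows, -0.35 for the alpha row) and for Cxcl10 (-0.03 without globin genes). With 1 library left out the log2 fold change was -0.25 to 0.35 for Cxcl12, -0.28 to 0.43 for Cxcl10 and -0.21 to 0.68 for Pf4, which turned without infant replicate 1. Quantile normalization moved the median of all genes by 0.12, to 0.04.

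No pairing by replicate number was detected. The deviations of same-numbered libraries correlated at 0.028, -0.11 and -0.021, and those of differently numbered libraries at -0.122 to 0.111. With 3 libraries per group this cannot show that pairing was absent. With a replicate block 1371 genes were called and 1 NF-kB gene, and no call of a member changed.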
